A study of Mus musculus with 31 samples.

Results

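Embryoid bodies of 2 genotypes were compared after 11 days of differentiation, on 15 of the 31 mouse expression arrays of the study. Of these, 6 carry RNA of Nos3-/- embryoid bodies at day 11 and 9 that of control embryoid bodies at day 11, and they were chosen by their labels alone. Embryoid bodies are cell clusters that differentiate without added lineage factors. The cells were induced pluripotent stem cells, reprogrammed by Sendai virus out of fibroblasts taken from adult male tail tips, held on growth-arrested mouse embryonic fibroblasts (feeder cells) before differentiation, and aggregated in microwells, for both genotypes alike. The Nos3-/- cells came from strain B6.129P2-Nos3tm1unc/J and the control cells from wild type CD1 mice, so genotype and strain cannot be told apart in any difference given here. Whether the arrays of a group stem from different clones, cultures or animals is not stated, and p-values therefore rest on variation from array to array that could be technical alone. Day 0 arrays (6 Nos3-/- and 10 control) of the undifferentiated cells are used only to ask which differences were already there.

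Nos3 encodes endothelial nitric oxide synthase, which makes the gas nitric oxide in blood vessels and heart and, through soluble guanylate cyclase, raises cyclic GMP in nearby cells. Mice that lack it are known for heart and valve defects that arise before birth, and the title of the series presents the cells as a model of these. In embryoid bodies an outer layer of visceral endoderm, the cell type that lines the yolk sac, feeds the inner cells and secretes serum proteins, while the inner epiblast cells lose pluripotency and give rise to mesoderm, heart, blood and neural tissue.

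Levels are log2 intensities as summarized by the authors with RMA, so that a difference of 1 is a 2-fold difference. A difference is written as Nos3-/- minus control, is given with its standard error (SE), and is called where limma gives an adjusted p under 0.05 over 34958 probe sets with 1 gene symbol. Each gene is represented by its probe set of highest mean level, which leaves 18194 genes. The files hold no call of detection, so a level at the low end of the scale does not show that a gene was expressed.

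In the Nos3-/- embryoid bodies the imprinted zinc finger gene Plagl1 was lower, as were some genes of yolk-sac endoderm (such as Rbp4 and Cubn), mesenchymal matrix (Postn, Col1a1), heart and valve (Tbx20, Snai2) and the Hox clusters (Hoxd1). Some genes of pluripotency and epiblast, among them Fgf4, Lefty1, Nanog and Pou3f1, were higher. In each of these lists most members were not called. Among probe sets 2720 were called (7.78%), of which 1410 were higher (4.03%) and 1310 lower (3.75%). By gene, 1460 of 18194 were called (8.02%), made up of 719 higher genes (3.95%) and 741 lower genes (4.07%). Counts of called genes in the lists below are to be read beside these shares. A difference of at least 2-fold was called upward in 149 genes and downward in 202. In 475 genes the 6 Nos3-/- values lay wholly apart from the 9 control values (2.61%), and 461 of them (2.53%) were called. The median difference over all genes was 0.00. Nos3-/- replicate 3 stood apart over all probe sets, and control replicate 3 in its sex-linked genes, as described next.

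Nos3-/- replicate 3 correlated with every other array at 0.966 or less over the 34958 probe sets, whereas each of the other 14 arrays had a partner at 0.987 or above. Compared with the mean of the other 5 Nos3-/- arrays, 868 genes on it were at least 2-fold lower and 831 at least 2-fold higher. Without it, 1137 genes were called higher and 1153 lower. Control replicate 3 had the Y-linked genes Eif2s3y at 3.21, Kdm5d at 2.79 and Uty at 2.95, against lowest levels of 10.46, 6.26 and 7.17 on the other 8 control arrays, although the labels give male donors. Its level of Xist, the RNA that silences an X chromosome in female cells, was 9.62, the highest of the 15 arrays. As a check of the differentiation, 16 of 28 cardiac transcription factors were higher at day 11 than at day 0 in Nos3-/- and 16 of 28 in control cells (13.1% and 16.3% of all genes were), while 4 of 27 pluripotency genes were lower in Nos3-/- and 9 of 27 in control cells (17.6% and 17.9% of all genes).

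Nos3 itself was measured by 1 probe set, with a lowest, median and highest level of 6.70, 6.91 and 7.06 on the Nos3-/- arrays, against 6.76, 7.05 and 7.43 on the control arrays. The groups overlap over most of the Nos3-/- range, and the control range reaches higher. The difference was -0.17 (SE 0.10, limma adjusted p = 0.365) and was not called. At day 0 the same probe set was called higher in Nos3-/- cells (0.33, limma adjusted p = 0.0329), with means of 6.98 against 6.65. The change of the difference between the days was not called (-0.51, adjusted p = 0.102). Neither the targeted part of the gene nor the place of the probes is given in the sources used here, so the level does not check the allele. Nos3 is also a marker of endothelium. The other synthase genes were not called at day 11 either. They are the neuronal Nos1 (7.36 ± 0.12, SD, n = 6, against 7.27 ± 0.16, SD, n = 9) and the inducible Nos2 (5.97 ± 0.10 against 5.93 ± 0.19). Near Nos3 on chromosome 5, sequence of the strain in which the allele was made could be retained. Of 72 genes whose starts lie within 5 Mb of Nos3, 5 were called higher and 6 lower, with a median difference of 0.01. Both shares are above those of all genes (3.95% higher and 4.07% lower), and this excess was not tested.

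Imprinted genes, which are expressed from the maternal or the paternal copy only, held the largest difference of the comparison. Plagl1 (also called Zac1), a paternally expressed zinc finger gene of a network of growth genes, had levels of 4.84, 6.87 and 7.66 (lowest, median, highest) in Nos3-/-, against 11.70, 13.12 and 14.03 in control. The groups lie about 4 log2 units apart, with no array between them. The difference was -6.44 (SE 0.44, limma adjusted p = 7.33e-08), an 86.8-fold lower level in Nos3-/-. Its other probe sets, at lower levels, differed by -1.70 and -3.24. The promoter is shown because imprinting of this gene is controlled by methylation of CpG pairs, and every CpG is in capitals. RefSeq places it on GRCm38.p6 at chr10:13090582-13090881, plus strand.
Plagl1: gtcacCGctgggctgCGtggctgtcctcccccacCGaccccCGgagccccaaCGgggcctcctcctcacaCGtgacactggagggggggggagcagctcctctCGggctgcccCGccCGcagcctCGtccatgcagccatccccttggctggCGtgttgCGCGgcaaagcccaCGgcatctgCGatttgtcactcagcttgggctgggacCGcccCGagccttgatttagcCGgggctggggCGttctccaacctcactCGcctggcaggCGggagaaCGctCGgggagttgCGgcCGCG
This window holds 26 CpG pairs in 300 bases, and 83.1% of 32851 mouse promoter windows of that length hold fewer. Methylation was not measured here.

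The maternally expressed RNAs of the Dlk1-Dio3 domain were the next lowest of the imprinted list. Rian, a long RNA that hosts snoRNAs, had levels of 5.96, 6.86 and 7.82 in Nos3-/-, against 6.21, 13.00 and 13.19 in control. Every control array but replicate 1 lies above the Nos3-/- range, and the control arrays spread widely among themselves. Rian was near 13 on control replicates 3, 4, 5, 6 and 8, where it measured 13.03, 13.00, 13.01, 13.03 and 13.19, and was 6.21, 9.73, 8.82 and 9.48 on control replicates 1, 2, 7 and 9. The difference was -4.20 (SE 0.98, adjusted p = 0.0133). Meg3, a long RNA of the same domain, differed by -3.39 (SE 0.91, adjusted p = 0.031) and Mirg, a host of microRNAs, by -3.10 (SE 0.80, adjusted p = 0.0242), and both were highest on the same 5 control arrays as Rian. Control replicates 2, 7 and 9 were intermediate for all 3 RNAs, above every Nos3-/- array, with Meg3 at 9.33, 9.07 and 9.23 and Mirg at 7.01, 6.79 and 7.13. Control replicate 1, with Meg3 at 7.06 and Mirg at 5.23, lay within or below the Nos3-/- ranges of 7.19 to 8.98 and 5.20 to 5.84. Dlk1, the paternally expressed protein gene of the domain, was not called (-1.30, adjusted p = 0.294). The Meg3 call was lost on omission of any 1 of 8 arrays (highest adjusted p = 0.0673), and the Mirg call without Nos3-/- replicate 4 (adjusted p = 0.052).

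Phlda2, a maternally expressed gene that restrains placental growth, had levels of 10.05, 10.51 and 11.36 in Nos3-/-, against 11.47, 12.05 and 12.68 in control, with no overlap. It differed by -1.44 (SE 0.22, adjusted p = 0.000518). Peg10, a paternally expressed gene derived from a retrotransposon and needed for the placenta, differed by -1.07 (SE 0.22, adjusted p = 0.00582), also without overlap, and its lowest value, 4.95, was that of Nos3-/- replicate 3. In the whole imprinted list 0 of 36 genes were higher, 6 lower and 30 not called, with a median difference of -0.49 against 0.00 over all genes. The median was -0.27 without Nos3-/- replicate 3, with 8 genes lower. That array alone was far below the other Nos3-/- arrays for several abundant members. Igf2, the fetal insulin-like growth factor, measured 11.26 there and 14.06 in the Nos3-/- median, against a control median of 14.17 (difference -0.49, adjusted p = 0.503). Slc38a4, an amino acid transporter, measured 3.79 there, with medians of 11.02 in Nos3-/- and 11.40 in control, and Cdkn1c, a cell cycle inhibitor, 6.86 with medians of 11.38 and 11.45. Mest (-0.64), Igf2r (-0.57), the antisense RNA Airn (-0.70), Zdbf2 (-1.18) and Grb10 (-0.42, adjusted p = 0.0501) were not called either, though another probe set of Grb10 was (-1.11, adjusted p = 0.0167).

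**Figure D1:**
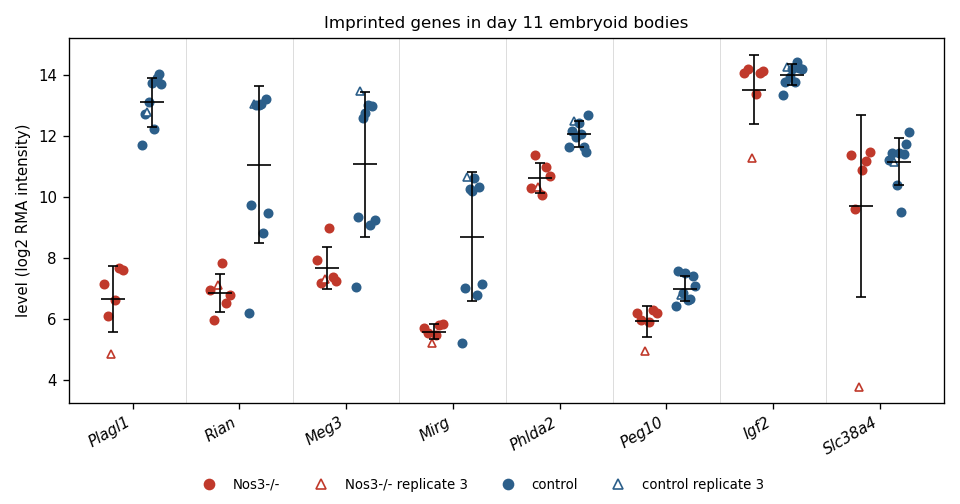
Levels (log2 RMA intensity, vertical axis) of 8 imprinted genes, with Nos3-/- arrays (red, left of each pair) and control arrays (blue, right); points are single arrays, open triangles the replicate 3 of each genotype, and bars the mean and SD. Plagl1 sits between 4.84 and 7.66 in Nos3-/- and between 11.70 and 14.03 in control, while Rian, Meg3 and Mirg are low on all Nos3-/- arrays and on control replicate 1, intermediate on control replicates 2, 7 and 9 and high on the other 5 control arrays.

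RNA of genes whose proteins visceral endoderm secretes was lower in Nos3-/- embryoid bodies for the members called. Afp, the fetal counterpart of albumin, had levels of 3.24, 7.15 and 8.99 in Nos3-/-, against 8.32, 11.79 and 13.92 in control. The highest Nos3-/- arrays reached the lowest control ones, and control arrays themselves spread over more than 5 log2 units. The difference was -4.84 (SE 1.06, limma adjusted p = 0.00914). Rbp4, which carries retinol from yolk sac to embryo, had levels of 6.87, 8.44 and 9.45, against 10.21, 12.00 and 13.59 in control. No Rbp4 value overlapped between genotypes (-3.43, SE 0.55, adjusted p = 0.000836). The transport protein Ttr differed by -2.83 and was not called (adjusted p = 0.0547), and its lowest value, 4.56, came from Nos3-/- replicate 3. Of its other 3 probe sets 2 were called (-2.44, adjusted p = 0.0451, and -3.21, adjusted p = 0.0418), as was Ttr in the fit of all 31 arrays (adjusted p = 0.0163). Serpina1b, a protease inhibitor of the alpha-1-antitrypsin family (-1.03), and Cst3, the protease inhibitor cystatin C (-0.77), were called. In the list of secreted proteins 0 of 17 genes were higher, 4 lower and 13 not called, with a median of -0.46. In 16 of the 17 genes the estimate was below 0.

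Uptake of nutrients by visceral endoderm runs through the receptor cubilin. Cubn, its gene, had levels of 4.40, 5.16 and 7.79 in Nos3-/-, against 5.99, 9.68 and 12.39 in control (difference -4.15, SE 0.89, adjusted p = 0.00793). Only control replicate 6, at 5.99, lay inside the Nos3-/- range. Amn, the membrane partner of cubilin, differed by -2.48 (SE 0.70, adjusted p = 0.039), and Dab2, the adaptor that brings the receptor into coated pits, by -1.88 (SE 0.50, adjusted p = 0.028). S100g, a calcium-binding protein of absorbing epithelia, had levels of 4.08, 5.60 and 6.18 in Nos3-/-, against 6.79, 8.79 and 11.69 in control, with no overlap (-3.85, SE 0.72, adjusted p = 0.00275). Mttp, which loads lipid onto apolipoprotein B, ran only from 6.58 to 6.85 in Nos3-/-, against 7.60 to 10.90 in control (-2.05, SE 0.43, adjusted p = 0.00654). Of 18 uptake and surface genes 0 were higher, 4 lower and 14 not called (median -0.54). Of 15 genes of apolipoproteins and lipid export Mttp alone was called (6.67% beside 8.02% of all genes, median -0.43). Rhox5, a homeobox gene active in yolk-sac endoderm, was not called and its estimate was above 0 (0.56, adjusted p = 0.737). Control replicates 3, 4 and 8 had the highest Afp, Rbp4, Cubn, S100g and Ttr of all arrays, so the control spread in these genes moves together.

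Gata6, a transcription factor needed for primitive endoderm and also used in the heart, had levels of 6.32, 9.02 and 9.60 in Nos3-/-, against 9.66, 10.55 and 11.36 in control, without overlap (-2.01, SE 0.41, adjusted p = 0.00515). Of 17 endoderm transcription factors 0 were higher, 1 lower and 16 not called (5.88% called beside 8.02% of all genes, median -0.21). Without Nos3-/- replicate 3 the median turned to 0.33, with 4 factors higher and Gata6 still lower. Sox17, one of these factors, was 5.24 on that array and 8.61 or more on all control arrays, yet it was not called (-0.82, adjusted p = 0.534). Parietal endoderm, which lays down the basement membrane of the outer yolk sac, had 0 of 16 genes higher, 3 lower and 13 not called (median -0.83). Lama1, a laminin chain of that membrane, differed by -2.53 (SE 0.68, adjusted p = 0.0298), and Snai1, a zinc finger repressor, by -0.48 (adjusted p = 0.0107), whereas Col4a1 was not called (-1.10, adjusted p = 0.15). Genes outside these lists with no overlap included Lgals2, a galectin (-2.82), Glipr1 (-3.11) and Tfec, a transcription factor of the MiT family (-2.49). Another probe set of Lgals2 (-1.50, adjusted p = 0.0983) and of Glipr1 (-0.22, adjusted p = 0.438) was not called. In bulk RNA, fewer cells of a type and less RNA per cell cannot be told apart, here and for all cell types below. The Amn, Dab2, Lama1 and Serpina1b calls were lost on omission of any 1 of 8, 4, 5 and 6 arrays (highest adjusted p = 0.0828, 0.0612, 0.0553 and 0.0755).

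Of the 9 called genes of the secreted, lipid and uptake lists, all had a promoter in the RefSeq table, in 11 windows from 250 bases before to 50 after the start. The windows were searched on both strands for GTTAAT, a part of the site of the endoderm factor HNF1, and for AGATAA, a site of GATA factors. GTTAAT was found in 3 of the 11 windows and in 7.10% of all 32851 windows, and AGATAA in 1 of the 11 and in 11.2% of all. The Afp window (GRCm38.p6, chr5:90490464-90490763, plus strand) and the Serpina1b window (chr12:103738140-103738439, minus strand) are shown because each holds GTTAAT, in capitals.
Afp: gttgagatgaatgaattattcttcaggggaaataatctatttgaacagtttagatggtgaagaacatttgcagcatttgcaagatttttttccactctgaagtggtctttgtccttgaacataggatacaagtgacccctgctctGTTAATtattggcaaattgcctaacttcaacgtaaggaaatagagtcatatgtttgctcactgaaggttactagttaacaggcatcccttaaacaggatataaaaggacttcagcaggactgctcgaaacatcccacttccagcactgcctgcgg
Serpina1b: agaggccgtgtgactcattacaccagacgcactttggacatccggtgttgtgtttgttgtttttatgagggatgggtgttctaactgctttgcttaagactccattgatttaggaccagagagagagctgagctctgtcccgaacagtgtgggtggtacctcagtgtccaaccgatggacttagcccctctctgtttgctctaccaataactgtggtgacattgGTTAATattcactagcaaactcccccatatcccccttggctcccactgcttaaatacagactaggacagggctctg
A match is a stretch of letters, and binding was not measured.

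**Figure D2:**
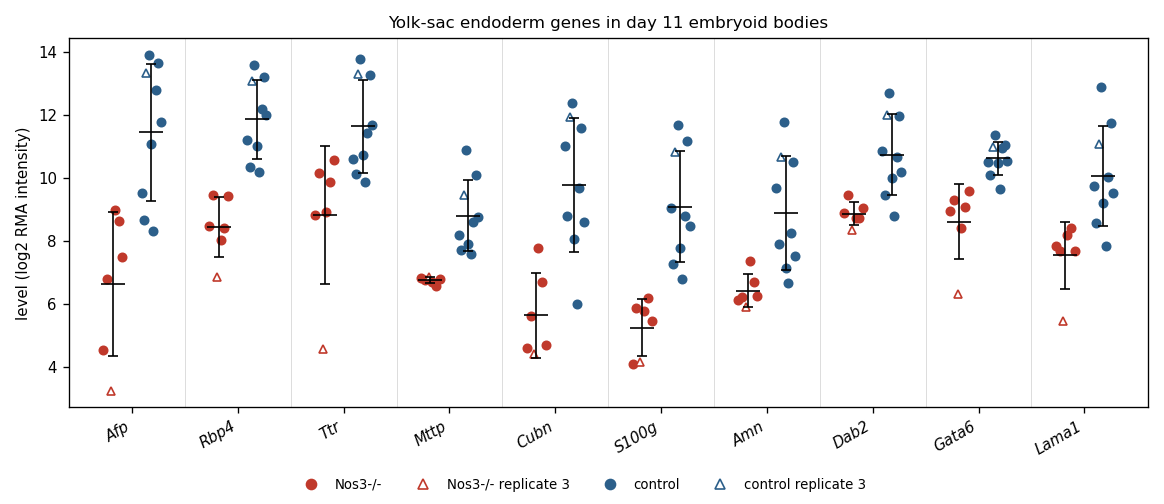
Levels (log2 RMA intensity, vertical axis) of 10 genes of yolk-sac endoderm, with Nos3-/- arrays (red, left of each pair) and control arrays (blue, right); points are single arrays, open triangles the replicate 3 of each genotype, and bars the mean and SD. Rbp4, Mttp, S100g and Gata6 do not overlap between genotypes, while Ttr on Nos3-/- replicate 3, at 4.56, lies far below the rest.

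Of 38 genes of fibroblasts and matrix 9 were lower in Nos3-/- embryoid bodies, 1 higher and 28 not called. Postn, which encodes periostin, a matrix protein of heart valves and connective tissue, had levels of 7.11, 8.00 and 9.21 in Nos3-/-, against 10.12, 11.92 and 12.84 in control. No Postn value overlapped, and the difference was -3.76 (SE 0.45, limma adjusted p = 4.85e-05). Col1a1, a chain of type I collagen, had levels of 7.19, 8.24 and 9.67, against 9.94, 11.26 and 12.23 in control (-2.91, SE 0.41, adjusted p = 0.000254). Col5a2, of type V collagen (-2.89), and Pdgfra, the PDGF receptor of early mesenchyme (-2.19), were also lower without overlap, as was Pdgfrb, the receptor of pericytes and smooth muscle (-1.66). Lum, a proteoglycan that spaces collagen fibrils, differed by -3.23 (SE 0.69, adjusted p = 0.00726), with overlap. Bgn, another small proteoglycan, went the other way (1.24, SE 0.31, adjusted p = 0.0195). The median of the list was -0.43. Vim, the intermediate filament of mesenchyme, was not called at levels above 12 in both groups (-0.44, adjusted p = 0.14). These genes are also those of the feeder fibroblasts, and the part of carried-over feeder cells in the differences was not tested. The mean over the list ran from 8.01 to 8.95 in Nos3-/- and from 8.41 to 9.60 in control. The Bgn call was lost without Nos3-/- replicate 4 or 6 (highest adjusted p = 0.0548).

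Among heart transcription factors, Tbx20, a T-box factor of heart chambers and valves, had levels of 5.66, 8.29 and 8.93 in Nos3-/-, against 8.69, 9.94 and 10.53 in control (-1.99, SE 0.44, adjusted p = 0.00893). Hey2, a Notch target that sets ventricle identity, ran from 4.17 to 5.87 in Nos3-/-, against 6.48 to 7.44 in control (-1.62, SE 0.25, adjusted p = 0.000615). Meis1, a homeobox cofactor of heart and blood, differed by -1.65 without overlap, and Hand2, of the right ventricle, by -1.99 without a call (adjusted p = 0.0895). Of 28 cardiac transcription factors 0 were higher, 5 lower, Gata6 among them, and 23 not called (median -0.39). In the valve and cushion list, which shares Tbx20, Hey2 and Postn with other lists, 0 of 30 genes were higher, 10 lower and 20 not called (median -0.48). Snai2, a factor that lets cushion cells leave the endocardium, was one of them, from 7.81 to 9.67 in Nos3-/- and from 10.15 to 11.49 in control (-1.99, SE 0.27, adjusted p = 0.000151). Of 26 sarcomere genes 1 was higher, 0 lower and 25 not called (3.85% called beside 8.02% of all genes, median -0.33, or 0.00 without Nos3-/- replicate 3). Myl7, the atrial myosin light chain, had levels of 7.01, 10.80 and 12.72 in Nos3-/-, against 9.76, 10.55 and 13.19 in control (adjusted p = 0.682), and Tpm1, alpha-tropomyosin, differed by -0.14 (adjusted p = 0.655). The called sarcomere gene was Myoz2, a Z-disc protein at low levels (4.80 ± 0.15, SD, n = 6, against 4.47 ± 0.15, SD, n = 9), and its call was lost without Nos3-/- replicate 2 or 6 (highest adjusted p = 0.053) and in the fit of all 31 arrays (adjusted p = 0.086). Among 22 genes of calcium handling, conduction and peptides 0 were higher and 1 lower (4.55% called beside 8.02% of all genes). Without Nos3-/- replicate 3, 1 was higher and 2 lower. The lower gene with all arrays was the potassium channel gene Kcnj3 (-0.88, adjusted p = 0.00607). The main heart gap junction gene Gja1 was not called (0.19, adjusted p = 0.371).

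Genes of the epicardium and outflow tract moved in both directions. Bnc1, a zinc finger factor of mesothelium, had levels of 4.72, 5.58 and 6.20 in Nos3-/-, against 6.61, 8.06 and 9.51 in control (-2.69, SE 0.37, adjusted p = 0.000215). Upk3b, a mesothelial membrane protein (-1.60), also had no overlap, and Tcf21, a factor of epicardial fibroblast precursors, differed by -2.14 (adjusted p = 0.0218, or 0.0525 without Nos3-/- replicate 4). Efemp1, a matrix glycoprotein on the same list, was higher (2.16, SE 0.26, adjusted p = 4.83e-05), and the whole list had 3 of 13 genes higher, 3 lower and 7 not called (median -0.36). Sema3c, a guidance ligand of the outflow tract and neural crest, had levels of 9.63, 10.26 and 10.87 in Nos3-/-, against 6.93, 7.66 and 8.40 in control, with no overlap (2.62, SE 0.24, adjusted p = 2.96e-06). Its receptor genes differed in the other direction, with Nrp2 at -1.41 (SE 0.24, adjusted p = 0.0013) and Nrp1 at -1.81 (SE 0.48, adjusted p = 0.0306). The second heart field and outflow list had 1 of 22 genes higher, 3 lower and 18 not called (median -0.23, or -0.05 without Nos3-/- replicate 3). The third was Tgfb2, a cushion ligand (-0.77, adjusted p = 0.0353). Calls of Nrp1 and Tgfb2 were lost on omission of any 1 of 6 and of 9 arrays (highest adjusted p = 0.0793 and 0.0873), and Tgfb2 also missed the threshold in the fit of all 31 arrays (adjusted p = 0.297).

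In the lists of endothelium, smooth muscle, blood and macrophages 1 gene each was called, a share of 2.94%, 5.88%, 5.56% and 3.85% beside 8.02% of all genes. Tek, the angiopoietin receptor of endothelium, had levels of 6.52, 7.01 and 7.42 in Nos3-/-, against 7.31, 8.30 and 8.71 in control, which overlap slightly (-1.27, SE 0.21, adjusted p = 0.00104). It was the sole call among 34 endothelial genes (0 higher, 1 lower, median -0.08), and the apelin receptor gene Aplnr was not called (-1.07, adjusted p = 0.402). In the smooth muscle list Pdgfrb was the only call among 17 genes (median -0.31), with Acta2, smooth muscle actin, at -1.09 (adjusted p = 0.0604, with another probe set called at -0.89) and Tagln, transgelin, at -0.57 (adjusted p = 0.232). Runx1, which directs the first blood stem cells, differed by -1.06 (SE 0.25, adjusted p = 0.0147) and was the sole call of 18 blood genes. The embryonic globin Hbb-bh1 had levels of 4.75, 5.94 and 11.43 in Nos3-/-, against 5.73, 10.74 and 12.00 in control, a spread in both groups that left it uncalled (-2.66, adjusted p = 0.197). In the list of macrophage and mast cell genes 1 of 26 was lower, the Fc receptor gene Fcgr3 (-1.10, adjusted p = 0.0293, lost on omission of any 1 of 4 arrays, highest adjusted p = 0.0671).

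**Figure D3:**
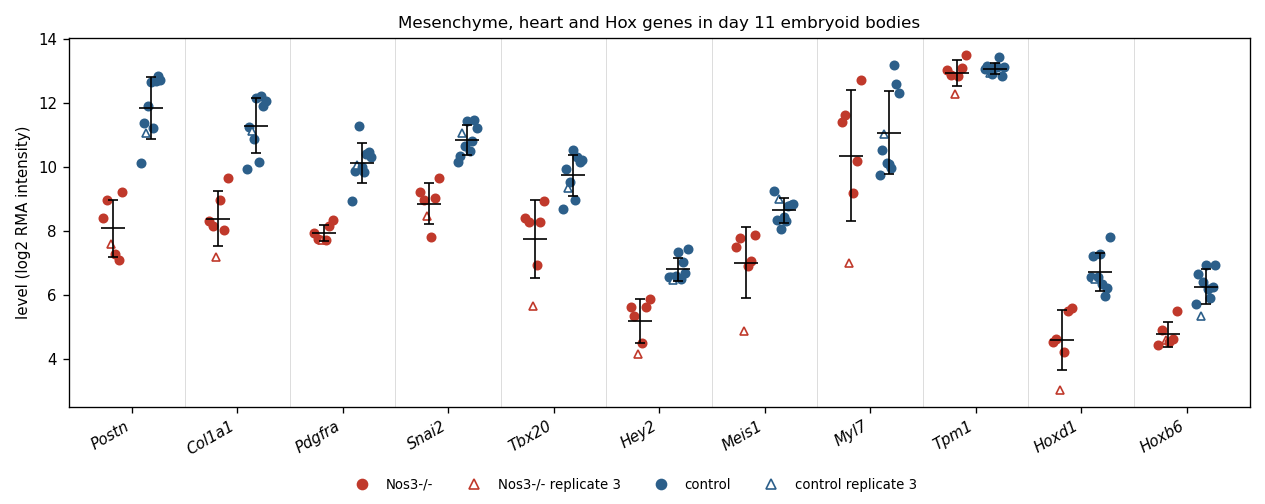
Levels (log2 RMA intensity, vertical axis) of 11 genes of mesenchyme, heart and body axis, with Nos3-/- arrays (red, left of each pair) and control arrays (blue, right); points are single arrays, open triangles the replicate 3 of each genotype, and bars the mean and SD. Postn, Col1a1, Pdgfra, Snai2, Hey2, Meis1 and Hoxd1 do not overlap between genotypes, while the sarcomere genes Myl7 and Tpm1 overlap.

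Hox genes, which give cells their position along the trunk, were lower wherever they were called. Hoxd1, an anterior member, had levels of 3.03, 4.59 and 5.60 in Nos3-/-, against 5.97, 6.56 and 7.81 in control, without overlap (-2.14, SE 0.36, limma adjusted p = 0.00122). Hoxb6 had levels of 4.44, 4.62 and 5.52, against 5.36, 6.26 and 6.95 in control, which overlap slightly (-1.49, SE 0.24, adjusted p = 0.00081). Hoxa9 (-1.90, adjusted p = 0.029) and Hoxa10 (-1.76, adjusted p = 0.0361), of the posterior trunk, were lower with overlap, and Hoxc9, at 7.24 ± 0.32 (SD, n = 6) against 7.51 ± 0.35 (SD, n = 9), was not called. Of 33 Hox genes 0 were higher, 11 lower and 22 not called, with a median of -0.66, or -0.39 without Nos3-/- replicate 3, when 11 were again lower. From day 0 to day 11, 9 of the 33 were lower and 0 higher in Nos3-/- (17.6% and 13.1% of all genes). In control cells 4 were lower and 10 higher (17.9% and 16.3%). Hoxa10 averaged 6.76 in Nos3-/- and 6.98 in control cells at day 0, above its Nos3-/- mean of 5.10 at day 11. Hoxd1, by contrast, averaged 3.83 and 3.63 at day 0. The part of feeder fibroblasts in these day 0 levels was not tested. Cdx2, a caudal homeobox factor that switches on posterior Hox genes, differed by -1.50 (SE 0.40, adjusted p = 0.0299), and Evx1, a homeobox factor of the posterior streak, by -1.38 (SE 0.24, adjusted p = 0.00181). They were the only calls among 22 genes of primitive streak and organizer (9.09% beside 8.02% of all genes, median -0.11). Without Nos3-/- replicate 3, 1 gene was lower. The Hoxa9, Hoxa10 and Cdx2 calls were lost on omission of any 1 of 6, 10 and 6 arrays (highest adjusted p = 0.0679, 0.0893 and 0.0674).

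Of 27 pluripotency genes 7 were higher in Nos3-/- embryoid bodies and 20 were not called. Fgf4, the growth factor of the epiblast, counted in the FGF list, had levels of 9.69, 10.28 and 11.30 in Nos3-/-, against 6.86, 7.56 and 8.23 in control, a gap of more than 1 log2 unit between the groups (2.85, SE 0.28, limma adjusted p = 4.57e-06). Fbxo15, a target gene of the pluripotency factors, had levels of 9.66, 10.82 and 11.60, against 6.79, 8.28 and 9.18 in control (2.54, SE 0.38, adjusted p = 0.000471). Lefty1, the secreted inhibitor of Nodal, counted in the list of formative and primed epiblast, ran from 10.97 to 12.82 in Nos3-/- and from 8.06 to 10.74 in control (2.25, SE 0.37, adjusted p = 0.00104). Tdgf1, the Nodal coreceptor Cripto, differed by 1.52 (SE 0.26, adjusted p = 0.00144), again without overlap. Nanog, Sox2 and Pou5f1, the core transcription factors, were higher by 1.25 (SE 0.30), 1.2 (SE 0.22) and 0.71 (SE 0.19), and each overlapped between genotypes. Pou5f1 lies outside the rule for naming genes and was added after its values were seen, and its call was lost on omission of any 1 of 6 arrays (highest adjusted p = 0.0852).

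The pluripotency list had no lower call and a median of 0.62. Without Nos3-/- replicate 3 14 were higher and the median was 0.78. That array had the lowest mean over the list, 8.57, and the range of the control means was 8.91 to 9.92. Dppa5a, a germ cell and stem cell RNA-binding protein, was 10.33 there, and was called without the array (adjusted p = 0.0112, against 0.735 with it), as was Sall4, a zinc finger partner of Pou5f1 (adjusted p = 0.0382, against 0.406), of which another probe set was called with all arrays (2.32). Genes of formative and primed epiblast, the later state on the way to germ layers, had 5 of 20 higher, 0 lower and 15 not called (median 0.51), with 8 higher without Nos3-/- replicate 3 and 3 without control replicate 3. Pou3f1, a POU factor of that state, had levels of 10.28, 10.52 and 10.75 in Nos3-/-, against 8.12, 8.38 and 9.58 in control (1.96, SE 0.18, adjusted p = 3.32e-06). Fgf5, a marker of primed epiblast, differed by 1.72 (SE 0.50, adjusted p = 0.0451) and Zic2, a zinc finger factor, by 1.05 (SE 0.31, adjusted p = 0.0466), while the methyltransferase Dnmt3b was not called (0.33, adjusted p = 0.357). Both calls were lost on omission of any 1 of 12 arrays, with adjusted p up to 0.10 for Fgf5 and 0.101 for Zic2. Germline genes had 2 of 21 higher and 0 lower (9.52% called beside 8.02% of all genes, median 0.40). The 2 were the meiotic cohesin Stag3 (1.86, adjusted p = 0.0192) and Tex14, of germ cell bridges (0.91, adjusted p = 0.0119). Tex14 had an adjusted p of 0.102 in the fit of all 31 arrays. Without Nos3-/- replicate 3, 7 germline genes were higher. The Stag3 call was lost without Nos3-/- replicate 1, 4 or 5 (highest adjusted p = 0.0556).

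**Figure D4:**
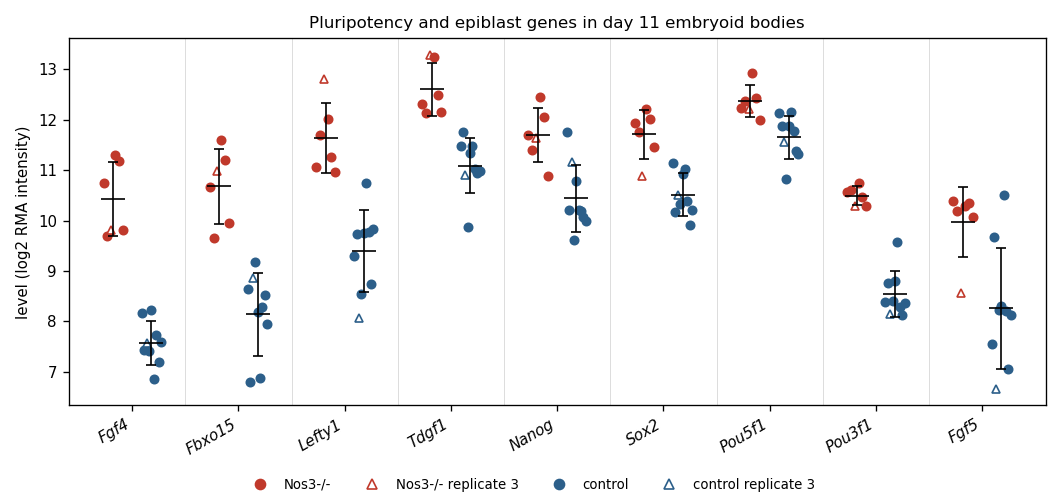
Levels (log2 RMA intensity, vertical axis) of 9 genes of pluripotency and epiblast, with Nos3-/- arrays (red, left of each pair) and control arrays (blue, right); points are single arrays, open triangles the replicate 3 of each genotype, and bars the mean and SD. Fgf4, Fbxo15, Lefty1, Tdgf1 and Pou3f1 do not overlap, with Fgf4 from 9.69 to 11.30 in Nos3-/- and from 6.86 to 8.23 in control.

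Epithelial genes were higher in part. Krt7, a simple-epithelium keratin (1.32, SE 0.37, adjusted p = 0.0359), the tight junction genes Cldn4 (0.87, adjusted p = 0.0216) and Cldn3 (0.84, adjusted p = 0.0147), and Trp63, the p63 factor of stratified epithelium (0.95, adjusted p = 0.0429), were called. Tfap2a, a factor of surface ectoderm and neural crest, was lower (-1.0, SE 0.23, adjusted p = 0.0112), and Krt8, at levels above 12, was not called (-0.13, adjusted p = 0.776). The list had 8 of 28 genes higher, 1 lower and 19 not called (median 0.27), and 11 higher and 3 lower without Nos3-/- replicate 3 (median 0.45). Calls of Krt7, Cldn4 and Trp63 were lost on omission of any 1 of 9, 4 and 10 arrays (highest adjusted p = 0.0964, 0.0619 and 0.105). Other probe sets of Trp63, at lower levels, were not called (0.00, 0.09 and 0.00). With the mean of its probe sets Trp63 was not called either (0.26, adjusted p = 0.0805). Neural genes had 4 of 32 higher, 0 lower and 28 not called (12.5% called beside 8.02% of all genes, median 0.04). Without Nos3-/- replicate 3 there were 5 higher and 2 lower (median 0.13). The 4 higher with all arrays were Sox2, the basic helix-loop-helix factors Olig1 and Olig2, and Stmn2, a tubulin-binding protein of growing neurites (1.17, SE 0.23, adjusted p = 0.00476). Outside the lists, Nefl, the light neurofilament chain, was higher without overlap (2.11, SE 0.58, adjusted p = 0.036, lost on omission of any 1 of 7 arrays, highest adjusted p = 0.0852), and so was Slc27a2, a fatty acid transporter and acyl-CoA synthetase (2.11, SE 0.27, adjusted p = 0.000112). The other probe set of Nefl was not called (1.29, adjusted p = 0.153), nor was the mean of its probe sets (1.70, adjusted p = 0.0673).

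In the Wnt list 4 of 43 genes were higher, 5 lower and 34 not called (median 0.04), with 3 lower without Nos3-/- replicate 3 or without control replicate 3. Rspo3, the R-spondin that strengthens Wnt signals in heart and vessels, had levels of 4.76, 7.06 and 7.57 in Nos3-/-, against 8.19, 9.32 and 10.56 in control (-2.54, SE 0.44, limma adjusted p = 0.00147). The receptor gene Fzd4 was lower (-0.93, adjusted p = 0.000796), and Fzd5, a receptor gene of epithelia, higher (1.05, adjusted p = 0.00736, but 0.0752 in the fit of all 31 arrays). Tcf7l1, the Tcf3 repressor of Wnt targets, was higher without overlap, from 10.24 to 11.36 in Nos3-/- and from 9.76 to 10.14 in control (1.02, SE 0.13, adjusted p = 0.000101). The other probe set of Tcf7l1, at a mean level of 10.20, was not called (0.24, adjusted p = 0.088). The ligand gene Wnt6 was higher (0.72, adjusted p = 0.00357) and Wnt2, a ligand of the early heart, lower (-1.46, adjusted p = 0.0486, lost on omission of any 1 of 12 arrays, highest adjusted p = 0.119). Sfrp1, a secreted Wnt inhibitor, has no single direction, since its called probe sets differed by 1.49, 3.03 and -0.82.

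Of 39 genes of BMP and TGF-beta signalling 1 was higher, 6 lower and 32 not called (median -0.20). Grem1, a secreted BMP antagonist, had levels of 7.01, 7.89 and 9.58 in Nos3-/-, against 5.59, 6.16 and 7.85 in control (1.82, SE 0.41, adjusted p = 0.0102). The ligand genes Bmp2 (-1.30, adjusted p = 0.0432) and Bmp4 (-1.10, adjusted p = 0.0466), and Smad6, an inhibitory Smad that BMP signals induce (-1.22, adjusted p = 0.0173), were lower. Without Nos3-/- replicate 3 the differences were -0.84 for Bmp2 and -0.70 for Bmp4, with adjusted p of 0.00779 and 0.00612, the fit of all 31 arrays gave Bmp2 an adjusted p of 0.078, and leaving out any 1 of 12 and 13 other arrays ended the calls (highest adjusted p = 0.102 and 0.0979). Smad2, counted among the lower genes, has no single direction, since its other probe set differed by 3.16. In the FGF list, Fgf4 and Fgf5 were the 2 higher of 26 genes and Fgfr3, a receptor gene, was one of 2 lower (-1.39, SE 0.22, adjusted p = 0.000664, median of the list -0.01), with 1 lower without Nos3-/- replicate 3 and 1 higher without control replicate 3. Aldh1a1, an enzyme that makes retinoic acid, was lower without overlap (-2.01, SE 0.48, adjusted p = 0.0158), and Cyp26b1, which breaks retinoic acid down, was higher (0.36, adjusted p = 0.00967). With Rbp4 these were the calls among 19 genes of the retinoic acid list, 1 higher and 2 lower (median -0.06). Igfbp2, an IGF-binding protein, was higher at high levels, 13.11 ± 0.18 (SD, n = 6) against 12.16 ± 0.34 (SD, n = 9). Its difference was 0.95 (SE 0.14, adjusted p = 0.000503). Of 19 genes of the IGF system 2 were higher and 0 lower (10.5% called beside 8.02% of all genes, median -0.16). The Notch list had 1 of 22 genes higher and 2 lower, with Hey2 one of the lower (median 0.02), and 1 lower without control replicate 3.

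Nitric oxide signalling had 1 of 24 genes higher, 2 lower and 21 not called (12.5% called beside 8.02% of all genes). The median was -0.04, and 1 gene was lower without Nos3-/- replicate 3. Gucy1b1, the beta subunit of soluble guanylate cyclase, the nitric oxide receptor, had levels of 3.98, 5.50 and 6.71 in Nos3-/-, against 5.47, 7.36 and 8.55 in control, which overlap (-1.91, SE 0.51, adjusted p = 0.0309). That call was lost on omission of any 1 of 7 arrays (highest adjusted p = 0.0857). Gch1, which makes the tetrahydrobiopterin that nitric oxide synthases need, had levels of 6.39, 6.80 and 7.47 in Nos3-/-, against 7.81, 8.15 and 8.68 in control, without overlap (-1.20, SE 0.18, adjusted p = 0.000372). Cav1, caveolin-1, which binds and holds back the endothelial synthase, was higher (1.09, SE 0.27, adjusted p = 0.0189, or 0.053 without Nos3-/- replicate 4). Pde5a, a phosphodiesterase that breaks down cyclic GMP, was not called (0.52, adjusted p = 0.0954), though another of its probe sets was (0.68, adjusted p = 0.0245).

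Pdk1, a kinase that closes pyruvate entry into mitochondria, was higher without overlap, from 10.94 to 11.41 in Nos3-/- and from 9.68 to 10.61 in control (1.12, SE 0.15, adjusted p = 0.000197), and Eno2, the neuronal enolase, lower (-2.01, SE 0.25, adjusted p = 6.58e-05). They were among 1 higher and 2 lower of 32 genes of glycolysis and hypoxia response (9.38% called beside 8.02% of all genes, median 0.00). Without control replicate 3, 1 gene was lower. Another probe set of Pdk1 was not called (-0.12, adjusted p = 0.594), while others were called higher (1.32 and 1.36). Of 44 oxidative phosphorylation genes 1 was called (2.27%), the complex I subunit Ndufs8 (-0.32, SE 0.07, adjusted p = 0.0067). Of 37 cell cycle genes 1 was higher and 0 lower (2.7% called). Without Nos3-/- replicate 3 these lists had 2 higher and 2 lower, and 2 higher and 1 lower. Another probe set of Ndufs8 was called (-0.32, adjusted p = 0.0085), while others were not (-0.12, -0.14, -0.03 and -0.12). With the mean of its probe sets Ndufs8 was not called (-0.18, adjusted p = 0.0972). Gstp1, a glutathione transferase, was higher without overlap (1.52, SE 0.21, adjusted p = 0.000251), and Pmaip1, the p53 target Noxa, as well (0.85, SE 0.14, adjusted p = 0.00118). Nnt, the mitochondrial transhydrogenase, of which some C57BL/6 substrains are known to carry a deletion, was lower (-0.84, SE 0.17, adjusted p = 0.00584), with Nos3-/- replicate 3 at 10.28 far above the other Nos3-/- arrays. In the p53 list 2 of 17 genes were higher and 1 lower, and 5 higher and 0 lower without control replicate 3. Interferon-stimulated genes had 1 of 29 higher, 4 lower and 24 not called (median -0.28), with 2 lower without control replicate 3. Of these Ifit1, an RNA-binding antiviral protein, had no overlap (-1.88, adjusted p = 0.0293), Irf9 (-0.53) and B2m (-0.64), the light chain of MHC class I, overlapped, and Ifitm3, a membrane restriction factor, was higher (0.64, adjusted p = 0.00765). Ifit1, Irf9 and B2m lost their calls when any 1 of 6, 9 and 8 arrays was left out (highest adjusted p = 0.0622, 0.0823 and 0.0879).

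Several differences without overlap were already called at day 0. Of the genes above, Fbxo15 (2.54 at day 11 and 2.56 at day 0) and Fgf4 (2.85 and 1.27) were among them. So were Gata6 (-2.01 and -1.71), Rspo3 (-2.54 and -1.66), Col1a1 (-2.91 and -1.26) and Meis1 (-1.65 and -1.25). Postn, Rbp4, Snai2 and Pou3f1, also without overlap at day 11, were not called at day 0. Olig1, a factor of oligodendrocyte precursors, had levels of 9.20, 10.07 and 10.64 in Nos3-/- embryoid bodies, against 4.58, 5.28 and 5.88 in control (4.80, SE 0.24, limma adjusted p = 2.3e-09). In undifferentiated cells its mean was already 10.49 ± 0.51 in Nos3-/- (SD, n = 6), and 4.85 ± 0.36 in control (SD, n = 10). Its neighbour Olig2 was higher on 5 of 6 Nos3-/- arrays, while replicate 3 measured 3.24, the control median. Zfp874a, a zinc finger gene, had levels of 7.22, 7.44 and 8.12, against 3.73, 3.82 and 4.00 in control, and differed by 3.73 at day 11 and 4.28 at day 0. Rpgrip1, a ciliary protein (2.58 at day 11 and 2.39 at day 0), Dnph1, a nucleotide hydrolase (2.28 and 2.19), Vps52, of vesicle return to the Golgi (2.34 and 1.75), Ang, the ribonuclease angiogenin (2.81 and 1.69), and Mid1, a ubiquitin ligase of microtubules (2.13 and 1.68), were higher on both days. A second probe set of Vps52 was lower (-0.35, adjusted p = 0.0491). At day 11, other probe sets of Rpgrip1 (0.02 and -0.03), Ang (-0.07) and Mid1 (0.21) were not called. A further probe set of each of these 3 genes was called higher (0.62, 2.4 and 1.13). Ccnb1ip1, a meiotic crossover gene (-3.64 and -3.29), Crxos, a homeobox gene (-2.53 and -2.60), and the chemokine gene Cxcl11 (-1.82 and -2.07) were lower on both days. Another probe set of Crxos (0.2) and of Cxcl11 (-0.14) was not called at day 11. Over all genes, 638 were called with the same sign on both days, which is 43.7% of the day 11 calls and 22.2% of the day 0 calls (15.8% of all genes were called at day 0). 

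The difference at day 11 was set against that at day 0 in 1 fit of all 31 arrays. Of 18194 genes, 189 (1.04%) were called for this change of the difference, and 135 of them were also called at day 11, 56 higher and 79 lower, of which 103 showed no called difference at day 0. Plagl1, called on both days, stood at -6.44 at day 11 against -2.37 at day 0, a change of -4.07 (adjusted p = 4.16e-05). Its level was 6.65 ± 1.07 (SD, n = 6) in Nos3-/- and 13.09 ± 0.81 (SD, n = 9) in control embryoid bodies, and 7.32 and 9.69 in Nos3-/- and control cells at day 0. Phlda2 differed by -1.44 at day 11 and 0.10 at day 0 (change -1.54, adjusted p = 0.0103). Postn (change -2.79, adjusted p = 0.0108), Snai2 (-1.60, 0.0483), Hey2 (-1.47, 0.0097), Upk3b (-1.79, 0.011) and Tek (-1.84, 0.0121), genes of mesenchyme, valve, mesothelium and endothelium, had larger differences at day 11. So did Hoxd1 (-2.34, 0.00277), Hoxb6 (-1.29, 0.0324), Fgfr3 (-1.47, 0.00406) and Fzd4 (-0.67, 0.0414).

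Lefty1 and Fgf5 changed the other way, with day 11 levels below those of day 0 in both genotypes. Lefty1 averaged 11.64 ± 0.70 (SD, n = 6) in Nos3-/- and 9.39 ± 0.82 (SD, n = 9) in control embryoid bodies, while it averaged 12.75 in Nos3-/- and 13.31 in control cells at day 0 (change of the difference 2.81, adjusted p = 0.0021). Fgf5 averaged 9.97 in Nos3-/- and 8.26 in control embryoid bodies, and 10.46 and 11.79 at day 0 (change 3.05, adjusted p = 0.0469). Pou3f1 (1.64, adjusted p = 0.0459), Sema3c (1.80, 0.0462), Grem1 (2.62, 0.0103), Bgn (1.91, 0.0163), Cav1 (1.76, 0.0199), Fzd5 (2.37, 0.0228), Wnt6 (0.77, 0.0208) and Pmaip1 (0.93, 0.0208) also changed upward. Fzd5 was called lower at day 0 (-1.32, adjusted p = 0.0146) and higher at day 11 (1.05), with the day 11 call lost in this fit. In Bgn, Grem1 and Cav1 the day 0 level was above the day 11 level in both genotypes, at 12.15, 9.97 and 11.63 in Nos3-/- and 12.83, 10.78 and 12.30 in control cells. The part of feeder fibroblasts in these day 0 levels was not tested. Tmem87a, a Golgi membrane protein, was lower on both days and more so at day 11 (-3.16 against -2.01). So was Hddc3, a phosphohydrolase (-2.58 against -0.98). Trim12a, a TRIM family gene, was higher on both days and less so at day 11 (2.50 against 3.24). Another probe set of Hddc3 (0.04) and of Trim12a (0.03) was not called at day 11. The yolk-sac genes Afp (change -4.32, adjusted p = 0.0737), Rbp4 (-2.38, 0.113) and S100g (-3.03, 0.113) were not called for the change. Nor were the core factors Nanog (-0.20, 0.89) and Sox2 (0.17, 0.901), or Rian (-2.87, 0.196). In none of these genes is the day 11 difference shown to differ from that of day 0. Nanog (1.44, adjusted p = 0.00462) and Sox2 (1.03, adjusted p = 0.0289) were already called higher in Nos3-/- cells at day 0. Afp, Rbp4, S100g and Rian were not called at day 0. The number of probe sets called for the change, 303 with all arrays, depended on single arrays, with 766 without Nos3-/- replicate 3, 162, 200 and 196 without Nos3-/- replicates 1, 2 and 6, and 177 without control replicate 8.

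**Figure D5:**
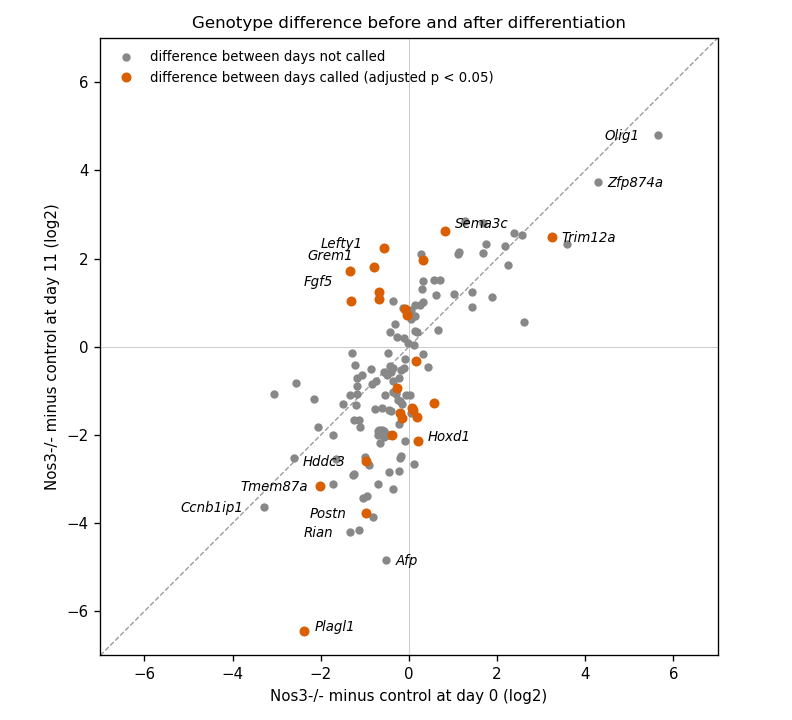
Nos3-/- minus control difference at day 11 (log2, vertical axis) against the same difference at day 0 (log2, horizontal axis) for 146 named genes; each point is a gene, orange where the difference between the days was called (25 genes), and the dashed line marks equal differences. Olig1 and Zfp874a lie close to the line, Plagl1 and Postn below it, and Lefty1 and Fgf5 above it.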

How the data were processed

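Expression was measured on 15 day 11 arrays (6 Nos3-/- and 9 control), with 16 day 0 arrays used for the comparison of days. The authors deposited log2 values made with RMA, per the submitters' processing notes. RMA shares information between arrays and compresses differences between low levels. Of 45101 probe sets, 34958 had 1 gene symbol in the platform annotation, and 34754 of these matched RefSeq (GRCm38.p6, also the source of promoters). Array medians were 6.16 to 6.23, so values were tested as deposited with limma 3.58.1 in R 4.3.3 (lmFit and eBayes, Benjamini-Hochberg adjustment over 34958 probe sets, called at an adjusted p under 0.05). The number of arrays limits the precision. Code was tested on simulated data.

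Genes named were Nos3, the 15 highest and 15 lowest genes without overlap, and from each of 41 lists up to 4 called genes in each direction and 3 abundant uncalled ones, with all members of the nitric oxide, imprinted and sex chromosome lists. This rule gives 290 genes, from which 150 were taken for description, 1 of them outside the rule. Members, lists and this selection were chosen with earlier results of these data known. Of 1068 list entries 1005 were measured. Lists share members, such as Gata6, Tbx20, Hey2, Postn, Pdgfra and Sox2. Alternatives concerned scaling, dim probe sets, the probe set used, variance model, array weights, arrays left out and the replicate number as a block.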

Additional observations from a re-analysis of the deposited data

Results flagged for a closer look

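In 382 sets of day 11 arrays (each named gene or list mean, in each genotype), 44 had a highest or lowest array set apart from the rest by more than Dixon's 95% critical value, where chance flags about 1 in 20. Nos3-/- replicate 3 was that array in 30 of the 44. It had the lowest level in its genotype of the imprinted genes Peg10 (4.95), Igf2 (11.26), Slc38a4 (3.79) and Cdkn1c (6.86), the endoderm genes Ttr (4.56), Gata6 (6.32), Sox17 (5.24), Lama1 (5.45), Snai1 (5.49) and Col4a1 (9.46), and Meis1 (4.88), Aplnr (5.18), Fzd5 (8.98) and Fgf5 (8.57). The same held for the stem cell genes Dppa5a (10.33) and Sall4 (11.55) and the epithelial genes Cldn4 (9.94), Cldn3 (8.06) and Krt8 (12.34), while Nnt (10.28) was its highest. Its list means were lowest for lipid export (6.43), uptake and surface (6.56), endoderm transcription factors (6.21), parietal endoderm (8.04), primitive streak (6.05), epithelium (8.60), imprinted genes (7.84), the Wnt pathway (6.87), the FGF pathway (7.59) and the retinoic acid pathway (7.06). Nos3-/- replicate 6 had the lowest mean of the glycolysis list (10.32).

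Control replicate 3 had the lowest Eif2s3y (3.21), Kdm5d (2.79) and Uty (2.95), and the lowest mean of the sex chromosome list (4.64). Control replicate 1 had the lowest Nrp1 (9.63), Acta2 (12.01) and imprinted list mean (8.92) and the highest Cldn3 (8.99). Control replicate 6 had the highest Bgn (9.14), Pou3f1 (9.58) and Slc27a2 (7.80). Control replicate 4 had the lowest Tdgf1 (9.87) and the highest mean of the interferon list (8.42).

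The genotype difference at day 11 minus that at day 0 was called by limma in 25 named genes. It was negative in Plagl1 (-4.07), Postn (-2.79), Hoxd1 (-2.34), Tek (-1.84), Upk3b (-1.79), Hddc3 (-1.60), Snai2 (-1.60), Phlda2 (-1.54), Hey2 (-1.47), Fgfr3 (-1.47), Hoxb6 (-1.29), Tmem87a (-1.15), Trim12a (-0.74), Fzd4 (-0.67) and Ndufs8 (-0.49). It was positive in Fgf5 (3.05), Lefty1 (2.81), Grem1 (2.62), Fzd5 (2.37), Bgn (1.91), Sema3c (1.80), Cav1 (1.76), Pou3f1 (1.64), Pmaip1 (0.93) and Wnt6 (0.77).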

How the results depend on the processing

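The count of called probe sets was 2720 as reported, 6161 with array weights, 900 with the replicate block, and 1988 to 4005 with single arrays left out. Tested by gene, 1478 genes were called with 1 probe set each and 1590 with the mean of their probe sets. The 719 higher and 741 lower genes were 1694 and 1707 with array weights, 232 and 219 with the replicate block, and 493 to 1137 and 539 to 1153 with single arrays left out, with the most in each case without Nos3-/- replicate 3. Without both replicate 3 arrays, an alternative chosen after seeing the data, 1081 genes were higher. The 303 probe sets called for the change from day 0 were 1898 with array weights, 191 with the replicate block, 741 without both replicate 3 arrays, and 162 to 766 with single arrays left out. Same-numbered arrays did not deviate together (correlations of -0.195 to 0.10), so the numbers are not taken as pairs. With the replicate block 64 of 114 called named genes lost their call. Alternatives other than omissions, the block among them, ended 56.1% of these calls, and 77 of 128 (60.2%) for the whole naming rule. Omitting 1 array or another ended the call of 31 of 114 called named genes (27.2%), and of 43 of 128 (33.6%) for the whole naming rule. Signs turned for Smad2 with the mean of its probe sets (0.92), for Cdkn1c with array weights (0.16), over single arrays left out (-0.78 to 0.27, positive without Nos3-/- replicate 3) and without both replicate 3 arrays (0.31), for Sox17 with array weights (0.05), for Myl7 with the replicate block (0.10), and for Krt8 with array weights (0.06), over single arrays left out (-0.22 to 0.11, again positive without Nos3-/- replicate 3) and without both (0.13). Apart from Smad2 these were uncalled, and the cause was not tested. Low levels lack a detection call, which limits what small differences there can show.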
